A study of Mus musculus with 9 samples.

Results

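The mitosis and kinetochore genes are a set of 60 genes chosen by name, from known roles in cell division, by a rule that names no measured value, although earlier results of these data were known when they were chosen. All 60 were among the 52248 named genes of the expression table and all 60 passed the filter on low values (a mean of at least 1 CPM, the reads of a gene scaled to a common library total, over the 9 libraries), as did 12396 genes in all. They were measured by RNA sequencing of organoids grown from prostate basal cells of male mice with floxed Mpc1 alleles (Mpc1 floxed, mixed C57BL/6N and C57BL/6J background). Mpc1 encodes a subunit of the mitochondrial pyruvate carrier (MPC), which imports pyruvate into mitochondria. There were 3 groups of 3 libraries. Mpc1-KO organoids grew from cells infected with a lentivirus coding for Cre recombinase and red fluorescent protein (RFP), so that Cre expression goes with the deletion. UK5099 organoids carried the RFP control lentivirus and received 10 µM UK5099, a small-molecule inhibitor of the carrier, for a week. Vehicle organoids carried the same control virus and received the solvent. RFP-positive cells were sorted in each group and the floxed alleles were common to all 3. Nothing in the labels tells if replicates came from different cultures or mice, so p-values measure only the spread between these libraries.

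Mitosis separates the duplicated chromosomes between daughter cells. Cyclin B with the kinase Cdk1 drives entry, the kinetochore on each centromere binds spindle microtubules, and the spindle checkpoint delays anaphase by holding back the anaphase-promoting complex until all kinetochores are attached. Most genes of this machinery are transcribed late in the cell cycle, repressed in resting cells by the DREAM complex and activated in G2 by Mybl2 and Foxm1 acting through a promoter element called the cell cycle genes homology region (CHR), often near boxes bound by NF-Y. In epithelium their RNA is therefore widely read as a marker of cycling cells. In bulk RNA, more cycling cells and more RNA per cycling cell cannot be told apart.

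Promoter windows of 300 bases, from 250 before to 50 after the annotated start, were available for 51 of the 60 genes (RefSeq, GRCm38.p6). The table's values carry no coordinates, so the windows are used for sequence only. Because these genes are known to share promoter elements, windows of 6 genes are printed whose results differ. Ccnb2 (cyclin B2) rose in both groups, Ect2 rose in Mpc1-KO, did not pass with UK5099 and differed between deletion and drug, Ncaph did the same without either element, Spc25 was lower in Mpc1-KO than with UK5099, and Bub3 and Pttg1 passed in no comparison. Capitals mark the CHR, searched as TTTGAA or TTCGAA, and the NF-Y box CCAAT, each on both strands, so that a match on the other strand reads TTCAAA or ATTGG. No match overlaps another in these windows.
Ccnb2 (chr9:70421505-70421804, minus strand): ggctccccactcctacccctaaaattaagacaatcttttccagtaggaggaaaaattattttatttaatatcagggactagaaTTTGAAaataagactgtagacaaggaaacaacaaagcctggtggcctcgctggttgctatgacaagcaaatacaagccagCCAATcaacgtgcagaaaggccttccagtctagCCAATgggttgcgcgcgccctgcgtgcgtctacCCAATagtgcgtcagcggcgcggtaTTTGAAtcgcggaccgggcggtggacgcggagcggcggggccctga
Ect2 (chr3:27153805-27154104, minus strand): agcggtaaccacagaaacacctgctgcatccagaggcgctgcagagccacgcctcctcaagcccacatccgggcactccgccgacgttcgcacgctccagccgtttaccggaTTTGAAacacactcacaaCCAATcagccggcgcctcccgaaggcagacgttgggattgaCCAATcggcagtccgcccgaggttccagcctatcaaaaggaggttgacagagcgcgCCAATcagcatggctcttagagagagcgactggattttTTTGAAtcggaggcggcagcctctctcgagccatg
Ncaph (chr2:127133905-127134204, minus strand): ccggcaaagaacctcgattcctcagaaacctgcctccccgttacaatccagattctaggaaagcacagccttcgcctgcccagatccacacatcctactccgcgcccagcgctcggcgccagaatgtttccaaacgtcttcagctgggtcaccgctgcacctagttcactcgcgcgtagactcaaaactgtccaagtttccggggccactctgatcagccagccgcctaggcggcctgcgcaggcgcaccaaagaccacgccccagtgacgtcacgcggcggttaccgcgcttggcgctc
Spc25 (chr2:69206164-69206463, minus strand): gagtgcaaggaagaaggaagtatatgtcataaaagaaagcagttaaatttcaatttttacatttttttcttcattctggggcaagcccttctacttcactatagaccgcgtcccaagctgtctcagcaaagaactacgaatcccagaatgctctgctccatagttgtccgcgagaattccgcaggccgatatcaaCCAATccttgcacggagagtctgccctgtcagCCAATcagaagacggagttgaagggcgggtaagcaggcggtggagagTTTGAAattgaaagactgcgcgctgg
Bub3 (chr7:131560120-131560419, plus strand): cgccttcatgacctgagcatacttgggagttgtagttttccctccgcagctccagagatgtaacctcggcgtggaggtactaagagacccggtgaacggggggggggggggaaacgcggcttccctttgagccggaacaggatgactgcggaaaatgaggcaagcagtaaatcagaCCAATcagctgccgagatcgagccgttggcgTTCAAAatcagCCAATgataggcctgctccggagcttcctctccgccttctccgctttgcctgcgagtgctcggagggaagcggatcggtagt
Pttg1 (chr11:43425932-43426231, minus strand): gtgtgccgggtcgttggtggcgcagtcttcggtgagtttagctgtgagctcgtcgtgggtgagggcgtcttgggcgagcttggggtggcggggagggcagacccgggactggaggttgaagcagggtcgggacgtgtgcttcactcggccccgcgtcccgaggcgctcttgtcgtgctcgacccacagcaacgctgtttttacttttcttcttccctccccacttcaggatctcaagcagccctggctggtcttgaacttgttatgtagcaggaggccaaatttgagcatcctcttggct

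Counting from the annotated start as position 1, the CHR began at 5 in Ccnb2, at 16 in Ect2 and at 25 in Spc25, and at -43 in Bub3. Ccnb2 and Ect2 each held a further CHR farther upstream, at -167 and at -138. The NF-Y boxes began at -87, -54 and -21 in Ccnb2, at -120, -79 and -23 in Ect2, at -55 and -23 in Spc25 and at -74 and -32 in Bub3. The windows of Ncaph and Pttg1 held neither set of letters. Bub3 and Ect2 each have another annotated start, whose window is not printed. Counted from that start, the CHR began at -167 in Bub3 and at -114 and 40 in Ect2.

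Over the whole set, 38 of the 51 genes with a window (74.5%) held a CHR in any of their windows. This was so for 15.98% of 9542 other tested genes and for 19.2% of all 32851 windows. Shares of genes count a match in any window of the gene, and shares of all windows count each window singly. Within 50 bases of the start, the CHR was present in 34 of 51 (66.7%), against 4.0% of other tested genes and 5.31% of all windows. The NF-Y box was present in 36 of 51 (70.6%), against 43.0% and 37.4%, and both elements in 32 of 51 (62.7%), against 7.80% and 7.53%. An E2F site, searched as TTTCGCGC, TTTGGCGC or TTTCCCGC on both strands, was found in 5 of 51 genes (9.80%), against 4.17% and 1.85%. A match is a stretch of letters and not a measured binding site. Genes with a CHR had a median log2 fold change of 0.84 (n = 38) and those without one 0.60 (n = 13) for Mpc1-KO over vehicle, and 0.66 and 0.51 for UK5099 over vehicle, given as a description. With and without the NF-Y box (n = 36 and 15) the medians were 0.82 and 0.75 in Mpc1-KO and 0.63 and 0.64 with UK5099. For the E2F site (n = 5 and 46) they went the other way, 0.66 and 0.82 in Mpc1-KO and 0.54 and 0.66 with UK5099.

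**Figure D1:**
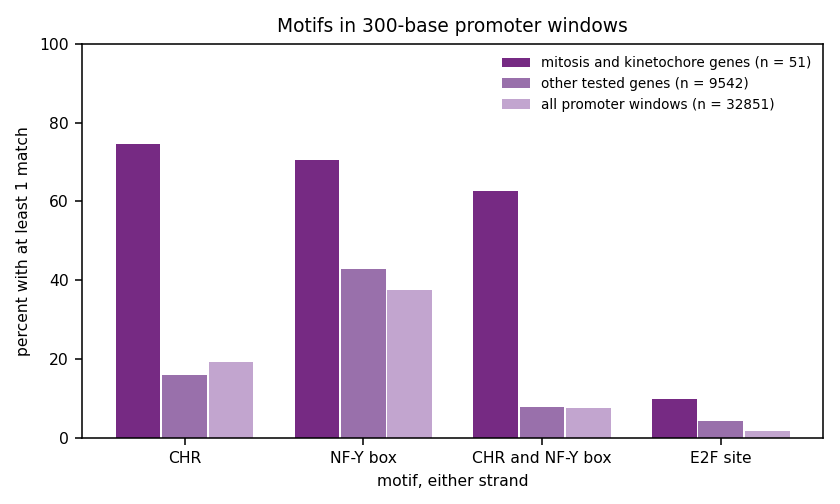
Percent with at least 1 match to each element (CHR, NF-Y box, both, E2F site) in promoter windows, on either strand. Dark and middle bars count genes with a match in any window, and light bars count single windows. Dark bars are the mitosis and kinetochore genes with a window (n = 51), middle bars other tested genes (n = 9542) and light bars all windows (n = 32851). The dark bar stands at 74.5% for the CHR and 62.7% for CHR and NF-Y box together, against 15.98% and 7.80% in other tested genes.

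The libraries held 16.5 to 28.7 M reads (median 23.9). Mpc1 itself stood at 0.52, 0.53 and 0.60 CPM in Mpc1-KO, 2.04, 2.47 and 2.30 CPM with UK5099 and 2.36, 2.41 and 2.38 CPM with vehicle, a log2 fold change of -1.46 ± 0.14 (SE, limma adjusted p = 6.7e-04) for Mpc1-KO over vehicle. Basal markers such as Krt5 and luminal markers such as Krt8 were present in every library. Summed basal markers (14 genes) were at 16072 to 16438 CPM in Mpc1-KO, 25741 to 28215 CPM with UK5099 and 16677 to 17074 CPM with vehicle. The sum hides changes in both directions. Against vehicle, 2 of the 14 were higher and 4 lower in Mpc1-KO, and 8 higher and 4 lower with UK5099 (limma adjusted p below 0.05). Of all tested genes 5.64% and 5.03% were so in Mpc1-KO and 19.9% and 18.2% with UK5099. Of 12 immune markers, 11 were below 1 CPM in every library, among them Cd3d, Adgre1 and Tyrobp at 0. The 12 summed to 45.6 to 52.7 CPM in Mpc1-KO, 11.9 to 29.9 CPM with UK5099 and 36.0 to 49.6 CPM with vehicle. The 1 immune marker tested was lower with UK5099 than with vehicle (log2 fold change -1.15) and higher in Mpc1-KO than with UK5099 (1.30). In Mpc1-KO over vehicle it did not pass (0.15). Of 8 endothelial markers 7 were below 1 CPM and Cdh5 and Emcn at 0.

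The first question was whether loss of the carrier, by deletion or by drug, changed RNA of the mitotic machinery. It was higher in both. In Mpc1-KO organoids 52 of 60 genes rose and 0 fell at an adjusted p below 0.05 (limma on log2(CPM + 0.5), Benjamini-Hochberg over all 12396 genes tested), against a background of 5.64% of all tested genes that rose and 5.03% that fell. With UK5099 53 of 60 rose and 0 fell, against 19.9% and 18.2% of all genes. The median log2 fold change was 0.79 (1.73-fold) for Mpc1-KO over vehicle and 0.68 (1.60-fold) for UK5099 over vehicle, where the median of all genes was -0.01 and 0.04. At an unadjusted p below 0.05, 0 members were lower in Mpc1-KO and 1 (Pttg1) with UK5099, both against vehicle. Both comparisons share the vehicle libraries, so their agreement is not independent.

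Without any test, the libraries of the groups did not overlap for most of the set. All 3 Mpc1-KO libraries lay above all 3 vehicle libraries for 55 genes and below them for 1, against 24.2% and 25.6% of all tested genes. All 3 UK5099 libraries lay above the vehicle libraries for 52 genes and below them for 1, against 24.4% and 21.3% of all tested genes. Summed over the 60 genes, the level was 2455, 2439 and 2480 CPM in Mpc1-KO, 2007, 2399 and 2012 CPM with UK5099 and 1584, 1283 and 1312 CPM with vehicle. The Mpc1-KO libraries were nearly level with each other, UK5099 library 2 stood above the other two of its group, and vehicle library 1 stood above the other vehicle libraries.

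**Figure D2:**
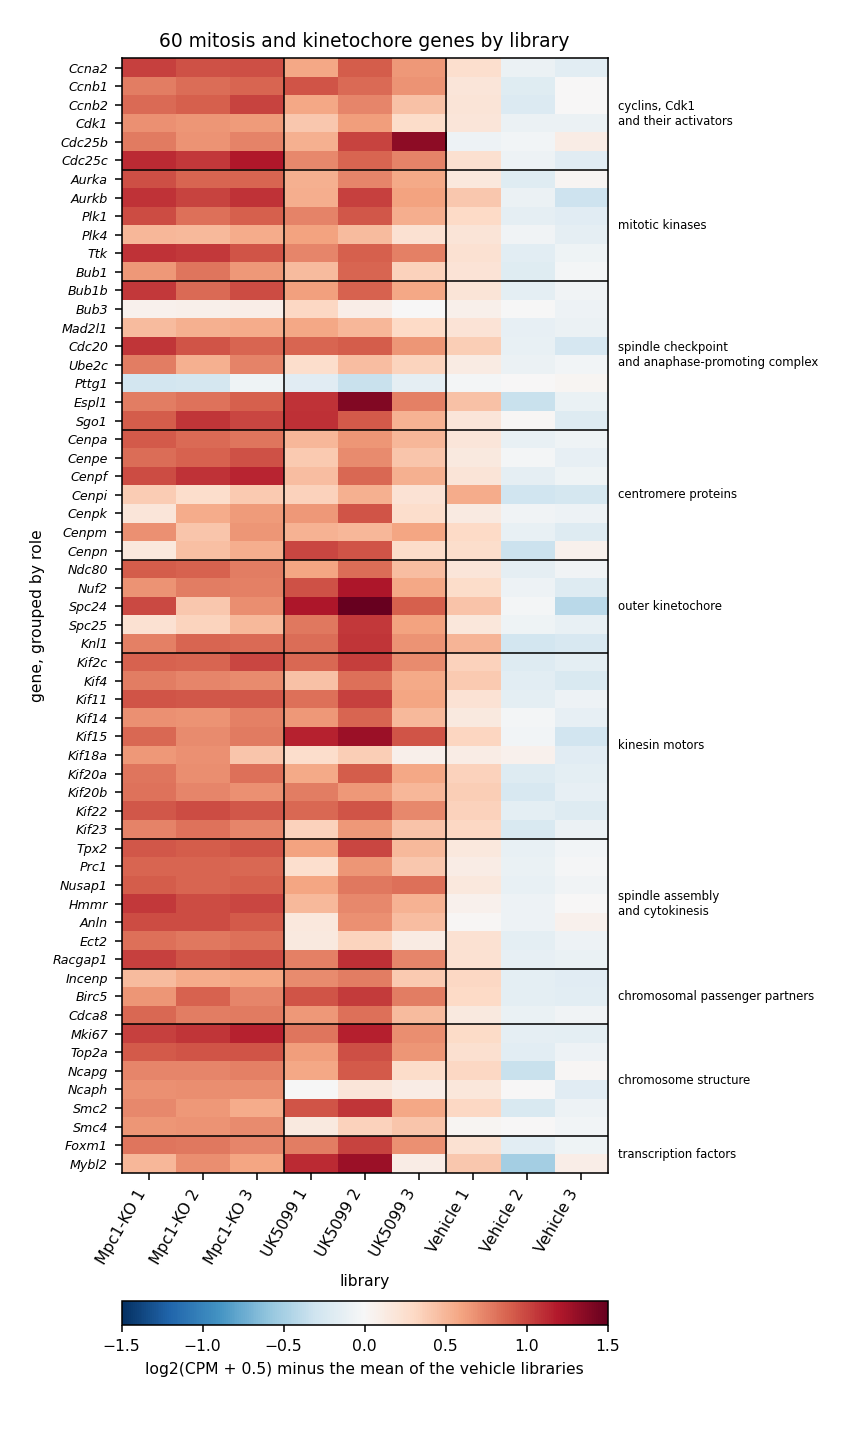
Each row is 1 of the 60 genes, grouped by role, and each column a library (Mpc1-KO, UK5099, vehicle). Colour is log2(CPM + 0.5) minus the mean of the vehicle libraries, red above and blue below. The Mpc1-KO columns are red for most genes, pale for Bub3 and blue for Pttg1, and vehicle library 1 is the reddest of the vehicle columns.

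Vehicle library 1 was the highest of its group for 57 of the 60 genes, and the median gene lay 0.22 above the vehicle mean in it (log2), against -0.12 and -0.09 in vehicle libraries 2 and 3. In the other groups the median gene lay 0.81, 0.81 and 0.78 above the vehicle mean in Mpc1-KO and 0.60, 0.87 and 0.53 with UK5099, where library 2 was the highest for 48 genes. The median of all tested genes was itself 0.14 above the vehicle mean in UK5099 library 1, and at -0.01 and -0.02 in UK5099 libraries 2 and 3. Part of the 0.60 in UK5099 library 1 was therefore shared by all genes. The genes were thus as even as other genes among Mpc1-KO libraries (median SD of 0.060 on the log2 scale, and 0.061 over all genes) and among UK5099 libraries (0.179 and 0.181), but less even among vehicle libraries (0.196 and 0.088). In vehicle 55 of the 60 had an SD above the median of all genes. Without vehicle library 1 the median log2 fold change of the set was 0.93 for Mpc1-KO over vehicle and 0.80 for UK5099 over vehicle.

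All 6 genes of the entry into mitosis rose in both groups. Cdk1, the kinase that drives mitosis, had 44.1, 43.4 and 42.8 CPM in Mpc1-KO, 36.0, 42.4 and 33.0 CPM with UK5099 and 30.9, 25.5 and 25.5 CPM with vehicle, a log2 fold change of 0.66 ± 0.10 for Mpc1-KO over vehicle (SE, limma adjusted p = 0.0056) and 0.44 ± 0.10 for UK5099 over vehicle (limma adjusted p = 0.0084). Ccnb1, the cyclin B1 that partners it, had 8.35, 8.80 and 9.01 CPM in Mpc1-KO, 9.54, 8.91 and 7.82 CPM with UK5099 and 5.39, 4.09 and 4.73 CPM with vehicle (log2 fold change 0.82 ± 0.13 in Mpc1-KO and 0.83 ± 0.13 with UK5099). For both genes every library of the deleted or treated organoids was above every vehicle library. The table also lists pseudogene entries for Ccnb1, Ccnb2, Kif4 and Kif22, none above 0.24 CPM, and the sources used here do not give how reads shared with such copies were treated, so the levels of these 4 genes are less certain.

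The phosphatases Cdc25b and Cdc25c activate Cdk1. Cdc25c had 9.89, 9.47 and 10.5 CPM in Mpc1-KO, 7.38, 8.22 and 7.52 CPM with UK5099 and 5.17, 4.01 and 3.76 CPM with vehicle, and its log2 fold change of 1.13 ± 0.13 was the highest of the 60 for Mpc1-KO over vehicle (limma adjusted p = 0.0013). Cdc25b had 85.7, 79.5 and 83.5 CPM in Mpc1-KO, 72.3, 101 and 127 CPM with UK5099 and 47.2, 48.4 and 53.5 CPM with vehicle. Its UK5099 libraries spread widely, from below the Mpc1-KO range in library 1 to well above it in library 3, and its change was 0.73 ± 0.16 in Mpc1-KO (limma adjusted p = 0.021) and 0.97 ± 0.16 with UK5099 (limma adjusted p = 0.0011), both against vehicle. The cyclins Ccna2 and Ccnb2 rose by 0.98 and 0.92 in Mpc1-KO and by 0.71 and 0.59 with UK5099 on the log2 scale.

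The 6 mitotic kinases also rose in both groups, with median log2 fold changes of 0.90 in Mpc1-KO and 0.67 with UK5099 over vehicle. Aurkb, the catalytic subunit of the chromosomal passenger complex, had 23.6, 22.6 and 23.6 CPM in Mpc1-KO, 16.1, 22.7 and 16.7 CPM with UK5099 and 14.6, 10.2 and 8.66 CPM with vehicle (log2 fold change 1.06 ± 0.18 in Mpc1-KO and 0.72 ± 0.18 with UK5099). Plk1, which acts at centrosomes, kinetochores and the midzone, had 27.2, 24.4 and 25.8 CPM in Mpc1-KO, 23.2, 26.3 and 20.1 CPM with UK5099 and 16.9, 12.3 and 12 CPM with vehicle (log2 fold change 0.90 ± 0.14 in Mpc1-KO and 0.74 ± 0.14 with UK5099). In both genes vehicle library 1 came closest to the other groups but stayed below them. Ttk, a checkpoint kinase, and Aurka, the spindle pole kinase, rose by 1.03 and 0.91 in Mpc1-KO and by 0.80 and 0.61 with UK5099, and the smallest changes of the group were those of Plk4, which licenses centriole duplication (log2 fold change 0.51 in Mpc1-KO and 0.43 with UK5099). The partners of Aurkb in the passenger complex rose in both groups as well, with Birc5 (survivin) at 0.76 in Mpc1-KO and 0.92 with UK5099, Cdca8 (borealin) at 0.80 in Mpc1-KO and 0.65 with UK5099 and Incenp, the scaffold, at 0.54 in Mpc1-KO and 0.63 with UK5099.

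**Figure D3:**
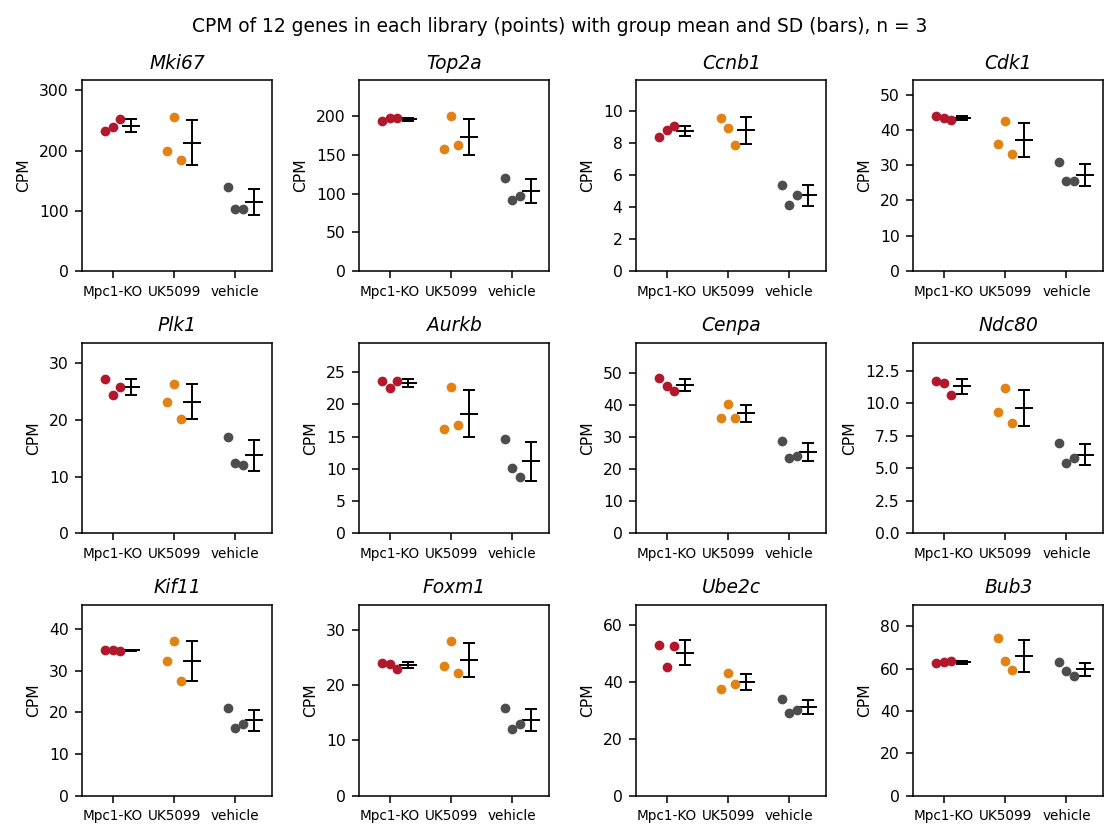
CPM of 12 genes in each library (points) with the group mean and SD (bars, n = 3), Mpc1-KO left, UK5099 in the middle and vehicle right, each axis starting at 0. Apart from Bub3, the Mpc1-KO and UK5099 points of these genes lie above all vehicle points.

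The spindle checkpoint and the anaphase-promoting complex held 2 of the 4 genes that passed in neither group. Of its 8 genes, 6 rose in each group. Bub3, which carries checkpoint proteins to kinetochores, had 62.4, 62.8 and 63.7 CPM in Mpc1-KO, 74.2, 63.5 and 59.5 CPM with UK5099 and 63.0, 59.1 and 56.6 CPM with vehicle, so that the groups overlapped in part and the 95% interval of its log2 fold change ran from -0.10 to 0.26 in Mpc1-KO and from -0.04 to 0.32 with UK5099. Pttg1 (securin), which restrains separase until anaphase, was the 1 gene with a negative log2 fold change against vehicle in both groups. It had 16, 16.1 and 18.6 CPM in Mpc1-KO, 17.2, 15.3 and 17.6 CPM with UK5099 and 19.1, 19.4 and 19.7 CPM with vehicle. Every vehicle library lay above the other 6, yet the difference did not pass (log2 fold change -0.20 ± 0.09, limma adjusted p = 0.20 in Mpc1-KO, and -0.21 ± 0.09, adjusted p = 0.097 with UK5099).

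Separase itself (Espl1), the protease that cuts cohesin, rose in both groups. Espl1 had 12.5, 13.0 and 13.7 CPM in Mpc1-KO, 15.7, 19.5 and 12.4 CPM with UK5099 and 9.83, 5.58 and 6.61 CPM with vehicle, with log2 fold changes of 0.83 ± 0.20 in Mpc1-KO (limma adjusted p = 0.032) and 1.07 ± 0.20 with UK5099 (limma adjusted p = 0.0023). Its call in Mpc1-KO was lost without vehicle library 2 or 3 or any 1 Mpc1-KO library, at limma adjusted p-values of 0.096 to 0.12. Ube2c, the ubiquitin-conjugating enzyme of the anaphase-promoting complex, had 53.0, 45.2 and 52.4 CPM in Mpc1-KO, 37.4, 43.0 and 39.2 CPM with UK5099 and 33.8, 29.1 and 30.0 CPM with vehicle (log2 fold change 0.68 ± 0.09 in Mpc1-KO and 0.36 ± 0.09 with UK5099). Here the 3 groups did not overlap, with Mpc1-KO highest. Cdc20, which activates the complex, Bub1b, the checkpoint protein that restrains Cdc20, and Sgo1, which protects centromeric cohesion, rose by 0.96, 0.97 and 0.99 in Mpc1-KO and by 0.81, 0.69 and 0.84 with UK5099, and Mad2l1 by 0.52 in Mpc1-KO and 0.46 with UK5099.

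Centromere proteins were mixed. Cenpa, the histone H3 variant that marks the centromere, had 48.4, 45.9 and 44.5 CPM in Mpc1-KO, 36.0, 40.5 and 36.0 CPM with UK5099 and 28.8, 23.4 and 24.1 CPM with vehicle (log2 fold change 0.86 ± 0.09 in Mpc1-KO and 0.55 ± 0.09 with UK5099). Cenpf, a large kinetochore protein of G2 and mitosis, had 85.2, 91.6 and 95.9 CPM in Mpc1-KO, 59.4, 78.5 and 62.3 CPM with UK5099 and 49.5, 39.3 and 41.1 CPM with vehicle (log2 fold change 1.07 ± 0.12 in Mpc1-KO and 0.62 ± 0.12 with UK5099). In both the 3 groups were ordered with no overlap, as they were for the kinetochore motor gene Cenpe (log2 fold change 0.89 in Mpc1-KO and 0.51 with UK5099). The 4 members of the constitutive centromere network had smaller or less even changes. Cenpm passed in both groups (log2 fold change 0.59 in Mpc1-KO and 0.54 with UK5099), Cenpk and Cenpn passed with UK5099 only (0.62 and 0.74, against 0.46 and 0.38 in Mpc1-KO) and Cenpi passed in neither (log2 fold change 0.35 in Mpc1-KO and 0.37 with UK5099), vehicle library 1 being above all other libraries for it at 7.02 CPM. Cenpn had 2.58, 3.29 and 3.54 CPM in Mpc1-KO, 5.05, 4.80 and 2.85 CPM with UK5099 and 2.81, 1.72 and 2.38 CPM with vehicle, and the groups overlapped in part between deletion and vehicle.

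The outer kinetochore, which grips the microtubule ends, had 4 of 5 log2 differences below 0 between deletion and drug (median -0.19). All 5 genes rose with UK5099 (median log2 fold change 0.86) and 3 of 5 in Mpc1-KO (median 0.73). Ndc80, the gene that names the complex, had 11.7, 11.6 and 10.6 CPM in Mpc1-KO, 9.34, 11.2 and 8.49 CPM with UK5099 and 6.93, 5.44 and 5.81 CPM with vehicle (log2 fold change 0.85 ± 0.13 in Mpc1-KO and 0.63 ± 0.13 with UK5099). Its partners Spc24 and Spc25 anchor the complex to the inner kinetochore. Spc24 had 4.0, 2.49 and 3.17 CPM in Mpc1-KO, 4.73, 6.24 and 3.70 CPM with UK5099 and 2.54, 1.72 and 1.21 CPM with vehicle, and its log2 fold change with UK5099 was the highest of the set at 1.23 ± 0.25 (limma adjusted p = 0.0037), against 0.70 ± 0.25 in Mpc1-KO, which did not pass (limma adjusted p = 0.11). Spc25 had 3.72, 4.04 and 4.55 CPM in Mpc1-KO, 5.77, 7.01 and 4.97 CPM with UK5099 and 3.58, 2.96 and 2.84 CPM with vehicle (log2 fold change 0.35 ± 0.15 in Mpc1-KO and 0.82 ± 0.15 with UK5099). For Spc25 all UK5099 libraries lay above all Mpc1-KO libraries. Nuf2 and Knl1 rose in both groups (0.73 and 0.83 in Mpc1-KO, 0.92 and 0.86 with UK5099).

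All 10 kinesin motors rose in Mpc1-KO (median log2 fold change 0.77) and 9 with UK5099 (median 0.68). Kif11, the motor that pushes the spindle poles apart, had 35.0, 34.9 and 34.7 CPM in Mpc1-KO, 32.3, 37.1 and 27.4 CPM with UK5099 and 21.0, 16.2 and 17.1 CPM with vehicle (log2 fold change 0.93 ± 0.12 in Mpc1-KO and 0.81 ± 0.12 with UK5099). Kif15, which can take over from Kif11, had 14.0, 12.5 and 13.1 CPM in Mpc1-KO, 17.3, 18.9 and 14.8 CPM with UK5099 and 9.51, 7.23 and 6.06 CPM with vehicle (log2 fold change 0.78 ± 0.16 in Mpc1-KO and 1.13 ± 0.16 with UK5099). The UK5099 libraries lay above the Mpc1-KO libraries for Kif15, whereas those of Kif11 spanned them. Kif18a, which damps chromosome movement at the metaphase plate, passed in Mpc1-KO only (0.58 ± 0.13, limma adjusted p = 0.022, against 0.24 ± 0.13, adjusted p = 0.18, with UK5099), and its call was lost without each of 5 single libraries, with adjusted p-values of 0.051 to 0.10.

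The genes of spindle assembly and cytokinesis were all higher in Mpc1-KO, where 7 of 7 passed with log2 fold changes of 0.82 to 1.01, whereas 6 of 7 passed with UK5099 at 0.20 to 0.86 over all 7. Chromosome structure genes passed in 6 of 6 cases in Mpc1-KO and 5 of 6 with UK5099. Mki67, whose product coats mitotic chromosomes and is the usual proliferation marker, had 232, 239 and 253 CPM in Mpc1-KO, 199, 256 and 185 CPM with UK5099 and 139, 103 and 102 CPM with vehicle (log2 fold change 1.08 ± 0.14 in Mpc1-KO and 0.89 ± 0.14 with UK5099). Top2a, the topoisomerase that untangles sister chromatids, had 194, 197 and 198 CPM in Mpc1-KO, 158, 200 and 163 CPM with UK5099 and 121, 91.8 and 96.9 CPM with vehicle (log2 fold change 0.94 ± 0.11 in Mpc1-KO and 0.75 ± 0.11 with UK5099). In both genes UK5099 library 2 reached the Mpc1-KO level and the other UK5099 libraries lay between it and vehicle.

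Of the transcription factors that act on this programme, Foxm1 had 24.1, 23.9 and 23.0 CPM in Mpc1-KO, 23.5, 28.0 and 22.2 CPM with UK5099 and 15.9, 12.1 and 13.0 CPM with vehicle, and rose by 0.78 ± 0.12 in Mpc1-KO (limma adjusted p = 0.0052) and by 0.82 ± 0.12 with UK5099 (limma adjusted p = 4.4e-04). Mybl2 (B-Myb) was uneven, at 3.66, 4.27 and 3.91 CPM in Mpc1-KO, 5.89, 6.62 and 2.67 CPM with UK5099 and 3.40, 1.57 and 2.63 CPM with vehicle. It did not pass in either group (limma adjusted p = 0.25 in Mpc1-KO and 0.058 with UK5099), and UK5099 library 3 lay at the level of the vehicle libraries.

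**Figure D4:**
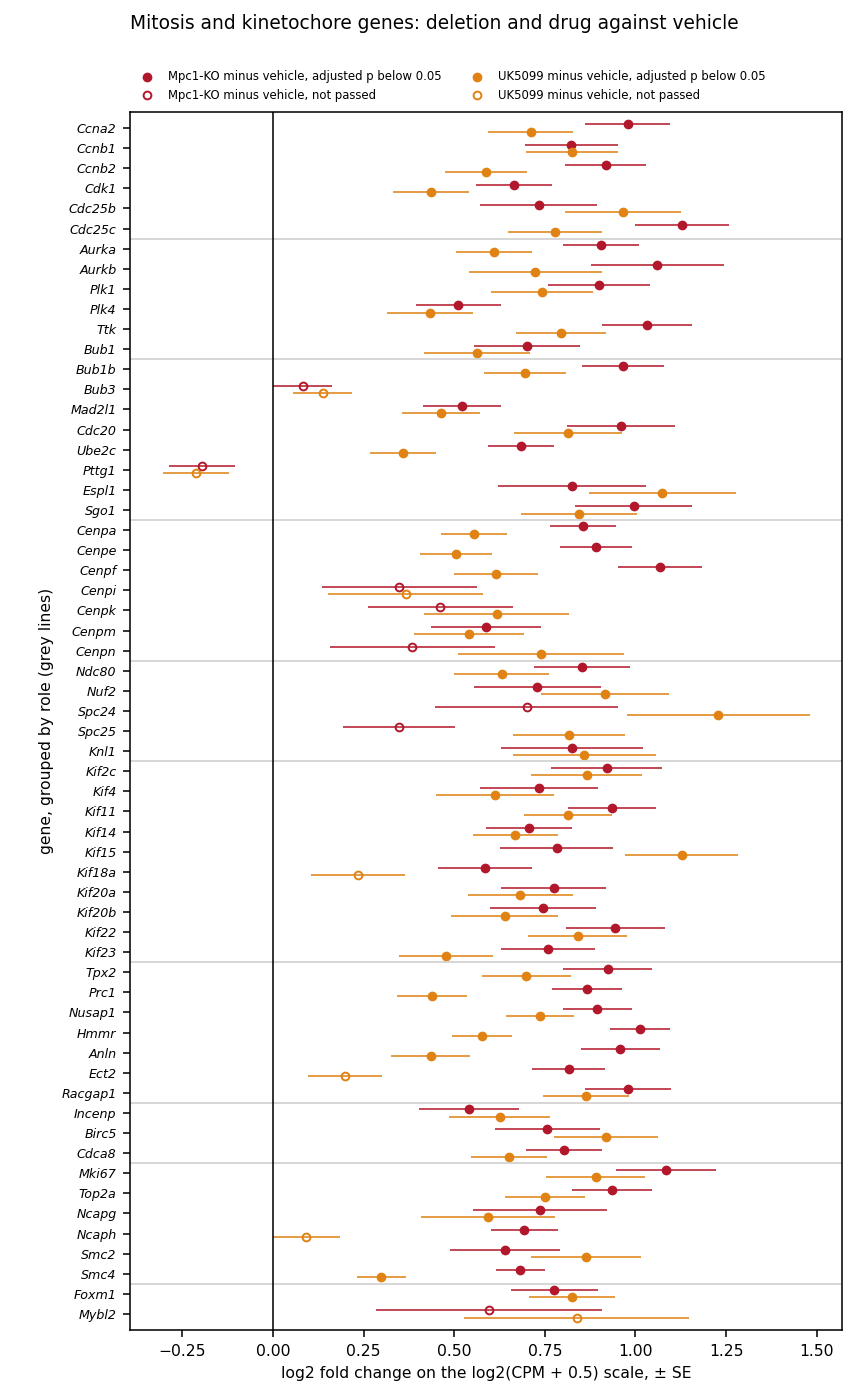
Log2 fold change (± SE) of each gene for Mpc1-KO over vehicle (red) and UK5099 over vehicle (orange), grouped by role with grey lines. Filled points passed at an adjusted p below 0.05. All genes but Pttg1 lie right of 0, and the red points lie farther right than the orange ones for the spindle assembly and cytokinesis genes but not for Spc24 and Spc25.

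The second question was whether deletion and drug raised these genes to the same extent, which was tested directly as Mpc1-KO over UK5099. For most genes no difference was shown. Of 60 genes, 12 were higher and 1 was lower in Mpc1-KO at an adjusted p below 0.05, shares of 20% and 1.67% against 21.1% and 23.2% of all tested genes, so the share that was higher was near the background and the share that was lower was under it. The median log2 difference was 0.14 (1.10-fold), with 43 positive and 17 negative, and the median of all genes was -0.05. The Mpc1-KO libraries lay above the UK5099 libraries without overlap for 19 genes and below them for 2, against 25.2% and 29.8% of all tested genes.

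Missing the threshold does not show that the effects were equal, so the intervals matter. Of the 47 genes that did not pass, 27 had a 95% interval that stayed within 0.5 log2 units of 0 and 46 one that stayed within 1 unit, and the bounds reached from -1.09 to 0.74. Ccnb1 had a difference of 0.00 with an interval from -0.29 to 0.28, Foxm1 -0.05 with -0.31 to 0.22, Kif14 0.04 with -0.23 to 0.30, and Bub3 -0.06 with -0.24 to 0.13. Mki67 (0.19, from -0.11 to 0.50) and Top2a (0.19, from -0.06 to 0.43) had intervals that included 0. Of the 49 genes that rose in both groups, 10 also passed between deletion and drug and 39 did not. The median difference moved with single drug libraries, being 0.23 without UK5099 library 2 and 0.06 without UK5099 library 3.

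**Figure D5:**
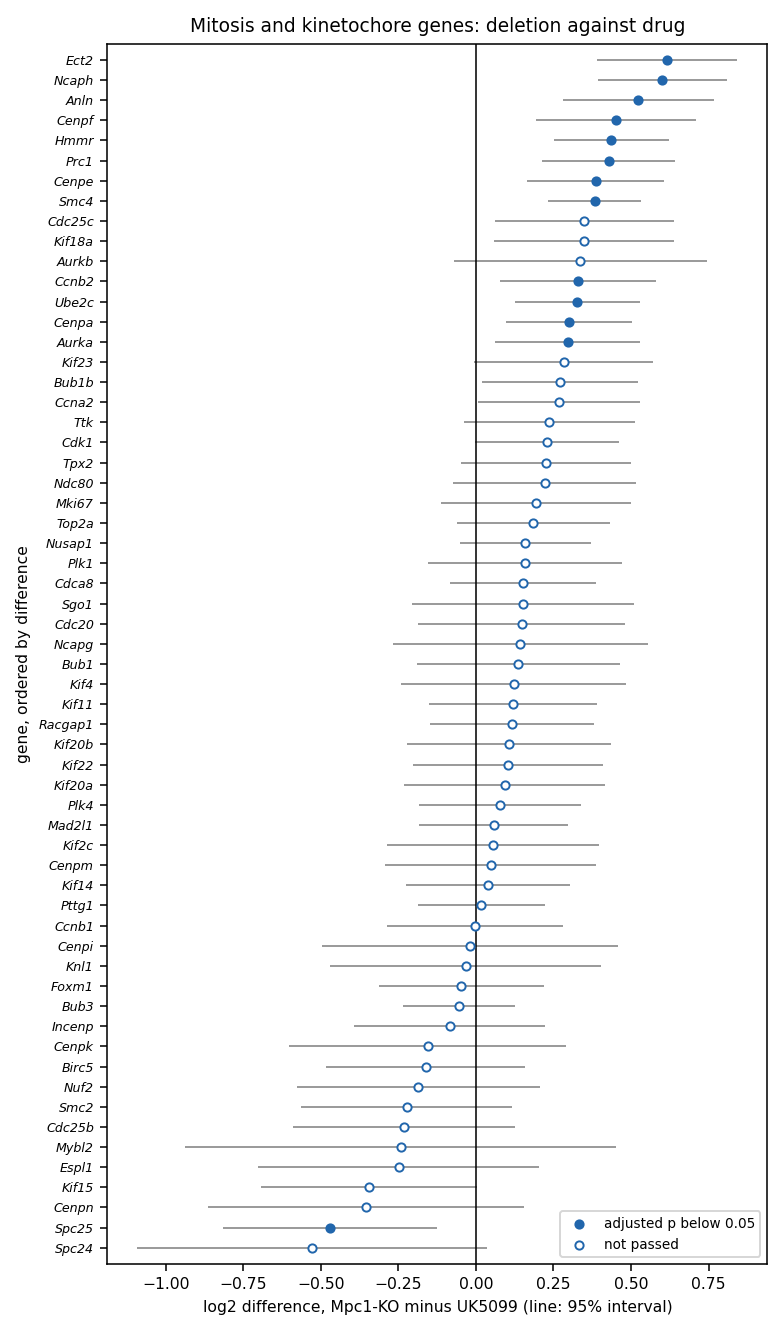
Log2 difference of each gene, Mpc1-KO minus UK5099, with its 95% interval, ordered by size, and filled points for genes that passed at an adjusted p below 0.05. The 12 filled points right of 0 run from Aurka (0.30) to Ect2 (0.62), Spc25 (-0.47) is the 1 filled point left of 0, and most intervals cross 0.

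The genes that were higher in Mpc1-KO than with UK5099 included 4 of the 7 spindle assembly and cytokinesis genes, against 21.1% of all tested genes. Ect2, which activates RhoA at the division plane, had 64.3, 62.4 and 64.2 CPM in Mpc1-KO, 39.8, 45.4 and 39.1 CPM with UK5099 and 42.3, 32.3 and 33.9 CPM with vehicle, a log2 difference of 0.62 ± 0.10 between deletion and drug (limma adjusted p = 0.0010). Anln (anillin), which links the contractile ring to the membrane, had 150, 151 and 144 CPM in Mpc1-KO, 85.3, 122 and 105 CPM with UK5099 and 77.3, 71.9 and 79.3 CPM with vehicle (0.52 ± 0.11, limma adjusted p = 0.0037). The UK5099 libraries of Ect2 overlapped the vehicle range, and its change with UK5099 did not pass (0.20 ± 0.10, limma adjusted p = 0.15, or 0.016 without vehicle library 1), whereas Anln rose with UK5099 by 0.44 ± 0.11.

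Prc1, which bundles midzone microtubules, had 88.8, 88.8 and 88.7 CPM in Mpc1-KO, 57.9, 76.7 and 64.3 CPM with UK5099 and 52.6, 45.2 and 47.9 CPM with vehicle (log2 difference 0.43 ± 0.10, limma adjusted p = 0.0057). Hmmr, a microtubule-binding spindle protein, had 39.7, 37.3 and 38.1 CPM in Mpc1-KO, 26.4, 31.3 and 27.2 CPM with UK5099 and 19.7, 17.8 and 18.9 CPM with vehicle (0.44 ± 0.08, limma adjusted p = 0.0023). For both genes the 3 groups were separate, with UK5099 between the others. The median log2 difference of the 7 genes was 0.43, and the other 3, Tpx2, Nusap1 and Racgap1, had differences of 0.23, 0.16 and 0.12.

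Among condensin subunits, which compact mitotic chromosomes, 2 of 4 were higher in Mpc1-KO. Ncaph had 36.0, 36.4 and 36.3 CPM in Mpc1-KO, 22.1, 25.2 and 24.0 CPM with UK5099 and 25.0, 22.2 and 19.7 CPM with vehicle, a log2 difference of 0.60 ± 0.09 (limma adjusted p = 7.1e-04). Smc4 had 194, 196 and 200 CPM in Mpc1-KO, 135, 155 and 163 CPM with UK5099 and 124, 123 and 119 CPM with vehicle (0.38 ± 0.07, limma adjusted p = 0.0015). Ncaph did not pass with UK5099 over vehicle (0.09 ± 0.09, limma adjusted p = 0.47) and Smc4 did (0.30 ± 0.07, adjusted p = 0.0061). Their complex partners Smc2 and Ncapg had differences of -0.22 and 0.14 with intervals that included 0. The remaining genes higher in Mpc1-KO were Cenpf (0.45), Cenpe (0.39), Ccnb2 (0.33), Ube2c (0.33), Cenpa (0.30) and Aurka (0.30).

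Of these 12 calls, 8 held at an adjusted p below 0.05 under each of 19 other fits (Anln, Cenpe, Cenpf, Ect2, Hmmr, Ncaph, Prc1 and Smc4), and all of these but Cenpe and Cenpf also passed at an adjusted p below 0.01. Aurka, Ccnb2, Cenpa and Ube2c were lost without some single library, for example without Mpc1-KO library 1 at adjusted p-values of 0.086 for Cenpa and 0.066 for Ube2c (limma). Spc25, the 1 gene lower in Mpc1-KO (-0.47 ± 0.15, limma adjusted p = 0.032), was lost without UK5099 library 2 (0.10), Mpc1-KO library 1 (0.11) or Mpc1-KO library 2 (0.086). Spc24 had a larger difference with a wider error (-0.53 ± 0.25, limma adjusted p = 0.11), and Cenpn one of -0.36 ± 0.23 (adjusted p = 0.23). In the kinesin group 0 of 10 genes passed in either direction by limma, 1 (Kif18a) being higher at an unadjusted p below 0.05. All 13 calls were made between groups that also differ in other ways. The squamous and cornified markers (18 of 21 tested) summed to 1496 to 1756 CPM in Mpc1-KO, 6421 to 9272 CPM with UK5099 and 1181 to 1385 CPM with vehicle. The mesenchymal markers (7 of 17 tested, Col1a2 and Thy1 at 0, mostly Fn1) summed to 2741 to 3605 CPM in Mpc1-KO, 280 to 615 CPM with UK5099 and 6760 to 7946 CPM with vehicle. Their part in the changes of the mitotic genes was not tested.

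The calls against vehicle were also uneven in how far they depended on 1 library. The number that rose in Mpc1-KO was 35 without vehicle library 2, vehicle library 3 or Mpc1-KO library 3, against 52 with all libraries. The share of all tested genes that were higher fell too, from 5.64% to 1.73%, 1.48% and 1.31% in these fits. The median log2 fold change of the set was 0.71, 0.76 and 0.79 in them. In Mpc1-KO 35 of 52 calls held at an adjusted p below 0.05 without any 1 library and in each of the other fits, among them Cdk1, Plk1, Aurkb, Mki67, Top2a, Kif11, Foxm1 and all 7 spindle assembly and cytokinesis genes. Those lost somewhere were Birc5, Bub1, Cdc25b, Cenpm, Espl1, Incenp, Kif15, Kif18a, Kif20a, Kif20b, Kif4, Knl1, Mad2l1, Ncapg, Nuf2, Plk4 and Smc2. With UK5099 44 of 53 held at that threshold in each of the same fits in which they were tested. Of these, Spc24 and Spc25 (means of 3.31 and 4.38 CPM) were not tested in the fit with a filter at 5 CPM. Anln and Aurkb held but did not pass at an adjusted p below 0.01. Bub1, Cenpk, Cenpm, Cenpn, Kif23, Kif4, Ncapg, Plk4 and Ube2c were lost somewhere.

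A second list of 65 mitosis genes outside the 60, of which 64 were tested, was counted beside them. In Mpc1-KO 30 rose and 0 fell by limma (1 lower at an unadjusted p below 0.05, median log2 fold change 0.47), and with UK5099 36 rose and 2 fell (median 0.42), both against vehicle. The share that rose was 46.9% in Mpc1-KO, against 5.64% of all tested genes. With UK5099 56.2% rose and 3.12% fell, against 19.9% and 18.2%. Sgo2a, the second shugoshin, rose by 1.08 ± 0.10 in Mpc1-KO and 0.98 ± 0.10 with UK5099, Ckap2l, a spindle protein, by 1.07 ± 0.08 in Mpc1-KO and 0.72 ± 0.08 with UK5099, and Ncapd2, a condensin subunit, by 0.87 ± 0.08 in Mpc1-KO and 0.73 ± 0.08 with UK5099 (limma adjusted p of 6.7e-04 or less for all). Between deletion and drug 16 were higher and 5 lower in Mpc1-KO, shares of 25% and 7.81% against 21.1% and 23.2% of all tested genes, so the share that was higher was near the background. Hjurp, the chaperone that deposits Cenpa, averaged 93.8 ± 5.36 CPM in Mpc1-KO, 53.4 ± 7.32 CPM with UK5099 and 60.02 ± 1.62 CPM with vehicle (SD, n = 3 each), a log2 difference of 0.82 ± 0.09 between deletion and drug (limma adjusted p = 9.5e-05). Mad2l2, a relative of Mad2l1, and Ccnf, a cyclin-like F-box protein, were higher by 0.64 ± 0.08 and 0.58 ± 0.12.

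Genes of the preceding S phase gave counts that changed with the fit. Of 51 DNA replication genes, 4 rose and 0 fell in Mpc1-KO by limma (21 higher and 0 lower at an unadjusted p below 0.05, median log2 fold change 0.30), and 30 rose and 1 fell with UK5099 (median 0.44), both against vehicle. The shares of this list that rose and fell were 7.84% and 0% in Mpc1-KO, against 5.64% and 5.03% of all tested genes. They were 58.8% and 1.96% with UK5099, against 19.9% and 18.2%. The count in Mpc1-KO was 28 with weights estimated per group and 27 with the 6 libraries of the comparison alone, under which UK5099 over vehicle gave 18 and 19. All tested genes moved with these fits as well, 5.64% being higher in Mpc1-KO over vehicle in the 9-library fit, 17.6% with weights per group and 17.5% with the 6 libraries. For UK5099 over vehicle these shares were 19.9%, 14.7% and 14.2%. Between deletion and drug 2 were higher and 7 lower in Mpc1-KO (median -0.19), the number lower being 21 without UK5099 library 3 and 2 without UK5099 library 2. The share lower was 13.7% against 23.2% of all tested genes, 41.2% against 27.8% without UK5099 library 3 and 3.92% against 20.8% without UK5099 library 2. Tk1, thymidine kinase, averaged 8.61 ± 0.30 CPM in Mpc1-KO, 13.9 ± 1.83 CPM with UK5099 and 6.25 ± 1.46 CPM with vehicle (SD, n = 3 each), a difference of -0.65 ± 0.16 between deletion and drug (limma adjusted p = 0.0078), and Tyms, thymidylate synthase, one of -0.65 ± 0.16. Ung, a uracil-DNA glycosylase, was higher in Mpc1-KO than with UK5099 by 0.73 ± 0.11.

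Repressors and inhibitors of the cell cycle (26 of 27 tested) moved in both directions, with 5 higher and 3 lower in Mpc1-KO and 6 higher and 3 lower with UK5099, both against vehicle. In Mpc1-KO these were 19.2% and 11.5% of the list, against 5.64% and 5.03% of all tested genes, and with UK5099 23.1% and 11.5%, against 19.9% and 18.2%, which is near or under the background. E2f8, an atypical E2F that peaks in S phase, rose by 0.57 ± 0.08 in Mpc1-KO and 0.61 ± 0.08 with UK5099, and Cdkn2c (p18) by 0.79 ± 0.12 in Mpc1-KO and 0.86 ± 0.12 with UK5099. Trp53 was at 47.4 ± 1.78 CPM in Mpc1-KO, 95.2 ± 21.3 CPM with UK5099 and 91.3 ± 11.2 CPM with vehicle, and differed between deletion and drug by -0.98 ± 0.14 (limma adjusted p = 4.3e-04). Rbl1 (p107), a subunit of the DREAM complex, rose by 0.85 ± 0.11 with UK5099 over vehicle and was lower in Mpc1-KO than with UK5099 by -0.66 ± 0.11 as a log2 difference, and E2f5, an E2F found in that complex, was higher by 0.56 ± 0.09.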

How the data were processed

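RNA was sequenced from 9 organoid libraries in 3 groups of 3 given by the labels. The methods state that stranded mRNA libraries (KAPA) were sequenced single-end, that reads were aligned with STAR (2.7.9a, GRCm 39, in the submitters' processing notes) and normalised in Partek Flow, and the authors tested differences with DESeq2. The deposited values are CPM to which the authors added 0.0001, with low genes not filtered out. The symbols are older than the stated annotation, 24 symbols had become spreadsheet dates, and 1 row with no name (7.2e-04% of reads or less) was dropped.

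The 0.0001 was subtracted and a mean CPM of 1 or more was required. Depth was read from the value of 1 read, since 99.9% of values lay within 0.02 of whole reads, and precision is limited by 3 libraries per group. limma 3.58.1 (R 4.3.3) was run on log2(CPM + 0.5) (1 fit of 9 libraries, mean-variance trend, 6 residual degrees of freedom, two-sided, Benjamini-Hochberg over 12396 genes, threshold 0.05). Fold changes are on that scale, which understates changes of low genes. The procedure was tested on simulated data with 1 spread per gene shared by all groups. In the data the median SD of all genes was 0.061 in Mpc1-KO, 0.181 with UK5099 and 0.088 with vehicle. The simulation did not cover such unequal spread. The members and lists were chosen with earlier results of these data known. Per-library values are given for 12 core genes, for the 4 highest and 3 lowest changes of each comparison and for up to 6 genes per direction that passed between Mpc1-KO and UK5099, and up to 3 genes by p per further list and comparison are named. Deviations from the group mean correlated at r = 0.44, 0.14 and 0.31 between same-numbered vehicle and UK5099 libraries. Between differently numbered ones r ran from -0.43 to 0.26, with vehicle 2 and UK5099 3 at 0.26. Same-numbered vehicle and Mpc1-KO libraries had -0.04, -0.02 and 0.09, and UK5099 and Mpc1-KO -0.12, -0.08 and 0.12. These values do not settle whether numbers pair libraries, and the reported fit used no pairing. An alternative added a replicate block over all 9 libraries, Mpc1-KO included. Others were pseudocounts, filters, rescaling, no trend, weights per group, the 6 libraries of a comparison, a stricter threshold and each library left out. Motifs were searched in RefSeq promoter windows (GRCm38.p6), matched by symbol.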

Additional observations from a re-analysis of the deposited data

How the results depend on the processing

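The numbers of mitosis and kinetochore genes that rose and their median changes kept their direction under all 19 alternatives, and no gene changed sign while called. Leaving out each library in turn gave 35 to 52 genes higher in Mpc1-KO than vehicle (35 without vehicle library 2 or 3 or Mpc1-KO library 3), with medians of 0.71 to 0.93, and 44 to 56 higher with UK5099 than vehicle (medians 0.57 to 0.80). Between Mpc1-KO and UK5099 it gave 8 to 17 higher and 0 to 2 lower, with medians of 0.06 to 0.23. Of all tested genes, these fits called 1.22% to 14.1% higher in Mpc1-KO and 13.9% to 23.1% higher with UK5099, both against vehicle. Between Mpc1-KO and UK5099 they called 15.9% to 26.4% higher and 16.4% to 27.8% lower. The number lower in Mpc1-KO than with UK5099 was 0 with a filter at 5 CPM on the mean, without a filter, with weights per group, with 6 libraries alone and at an adjusted p below 0.01, where 6 were higher. With the filter at 5 CPM 55 of the 60 genes remained. Spc25, with a mean of 4.38 CPM, was not among them, so the 0 with that filter does not test its call. The replicate block covered all 9 libraries, although same-numbered Mpc1-KO libraries did not deviate with the others. With it 52 genes were higher in Mpc1-KO and 53 with UK5099, both against vehicle (5.66% and 21% of all tested genes). Between Mpc1-KO and UK5099 it gave 11 higher and 1 lower (21.7% and 24.8% of all tested genes). The block took away the calls of Aurka (0.056) and Ccnb2 (0.051) between Mpc1-KO and UK5099 and added that of Kif18a (0.022). Weights per group gave 56 and 46 genes higher than vehicle in Mpc1-KO and with UK5099, and the 6 libraries alone 55 and 47. The shares of all tested genes that were higher moved the same way. They were 17.6% and 14.7% with weights and 17.5% and 14.2% with 6 libraries, against 5.64% and 19.9% as reported. Over all genes Mpc1-KO against vehicle was the comparison most open to these choices, with 699 higher and 624 lower as reported, 2180 and 2274 with weights per group, 2164 and 2235 with 6 libraries alone, 1746 and 1848 without UK5099 library 1, and 152 and 158 without Mpc1-KO library 1. The cause was not tested. The planned edgeR and DESeq2 alternatives on reads recovered from the CPM were not run, and the values were tested on the log scale only.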

Other observations

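The core subunits of the anaphase-promoting complex, which is assembled at all stages of the cell cycle, mostly did not pass. Of 15 subunits, 1 rose and 0 fell in Mpc1-KO (median log2 fold change -0.04) and 1 rose and 0 fell with UK5099 (median 0.08), both against vehicle by limma. In each group the share that rose was 6.67%. This was near the 5.64% of all tested genes that rose in Mpc1-KO and under the 19.9% with UK5099. At an unadjusted p below 0.05, 3 subunits were higher and 0 lower in Mpc1-KO and 1 was higher and 0 lower with UK5099. Anapc7 averaged 74.3 ± 0.29 CPM in Mpc1-KO, 66.5 ± 4.18 CPM with UK5099 and 63.1 ± 1.21 CPM with vehicle (SD, n = 3 each), a log2 fold change of 0.23 ± 0.06 for Mpc1-KO over vehicle (limma adjusted p = 0.034). Anapc13 rose with UK5099 by 0.27 ± 0.09 (limma adjusted p = 0.032).

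Of 7 tested cyclins and kinases of G1, 1 rose and 0 fell in Mpc1-KO (also 0 lower at an unadjusted p below 0.05), and 1 rose and 1 fell with UK5099 (4 lower at an unadjusted p below 0.05), both against vehicle. Each such gene was 14.3% of this short list. Of all tested genes 5.64% rose in Mpc1-KO, and 19.9% rose and 18.2% fell with UK5099. Myc, counted on this list as a driver of G1, averaged 141 ± 5.15 CPM in Mpc1-KO, 128 ± 12.9 CPM with UK5099 and 105 ± 11.4 CPM with vehicle (0.43 ± 0.09 and 0.28 ± 0.09 over vehicle, limma adjusted p = 0.017 and 0.031). Cdk6 averaged 464 ± 24.6 CPM in Mpc1-KO, 385 ± 15.1 CPM with UK5099 and 446 ± 7.52 CPM with vehicle, and was lower with UK5099 than with vehicle (-0.21 ± 0.05, limma adjusted p = 0.012). The inhibitor genes Cdkn2a and Cdkn2b were named after their values were seen. Cdkn2a averaged 19.2 ± 1.82 CPM in Mpc1-KO, 19.0 ± 6.29 CPM with UK5099 and 44.2 ± 4.34 CPM with vehicle, log2 fold changes of -1.18 ± 0.19 and -1.23 ± 0.19 (limma adjusted p = 0.0057 and 5.9e-04). Cdkn2b fell in Mpc1-KO by 0.56 on the log2 scale (limma adjusted p = 0.043) and had a change of -0.17 with UK5099 that did not pass (adjusted p = 0.41).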
